A study of Danio rerio with 2 samples.

Results

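The cytosolic ribosomal proteins were described across the EGFP-positive and the EGFP-negative cells of crestin_1kb:EGFP zebrafish embryos. They were taken by symbol, as all rows named rpl or rps followed by a digit, rplp followed by a digit, or rpsa, without the rps6k kinase genes and without rows that join several symbols. This gave 79 of the 14428 rows, 46 for the large subunit and 33 for the small one. The deposited unit was FPKM, the number of fragments per gene scaled by gene length and by the size of the library, so levels of different genes can be set side by side.

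Both libraries came from embryos (Danio rerio) that carried the same transgene, a fragment of crestin, a marker gene of the neural crest, in front of the fluorescent protein EGFP. The embryos had reached the stage labelled 15 SS and were sorted by fluorescence. The EGFP-positive library was made from about 5500 cells, which the labels call crestin-positive neural crest cells, and the EGFP-negative library from about 100000 cells without EGFP. The EGFP-negative fraction is whatever did not fluoresce, and any crest cell in which the fragment was silent would fall into it. Since each group had 1 library, replicate error could not be estimated, and differences are given by size without a test. In such bulk samples, fewer cells of a type and less RNA per cell cannot be told apart.

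The ribosome translates mRNA into protein. Its small subunit binds the mRNA and reads the codons, its large subunit joins the amino acids and releases the chain through an exit tunnel, and both are made of ribosomal RNA and a set of proteins that are mostly present as a single copy each. In animals the mRNAs of these proteins begin with a pyrimidine tract, the TOP motif, through which the mTOR pathway controls their translation as a group. In humans, loss of a copy of many of these genes causes Diamond-Blackfan anaemia, a failure of red cell formation that often comes with malformations of the face, and zebrafish heterozygous for ribosomal protein mutations are prone to tumours of the nerve sheath, a tissue derived from the neural crest.

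Ribosomal protein mRNAs made up a larger part of the EGFP-positive library. They accounted for 23.1% of the summed FPKM in EGFP-positive cells and 19.8% in EGFP-negative cells. The most abundant transcript of both libraries was rn7sk, a small nuclear RNA at 151452 FPKM in EGFP-positive and 61233 FPKM in EGFP-negative cells. With rn7sk left out of the sum, the shares were 26.8% in EGFP-positive and 21.3% in EGFP-negative cells. The large subunit contributed 15.1% of the summed FPKM in EGFP-positive against 12.7% in EGFP-negative cells, and the small subunit 7.98% in EGFP-positive against 7.13% in EGFP-negative cells. The summed share was therefore larger for both subunits. A few abundant members carried most of these sums, so the shares do not describe each gene.

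These were among the most abundant transcripts of either fraction. Of the 20 rows with the highest FPKM, 14 were ribosomal protein genes in EGFP-positive and 12 in EGFP-negative cells, and of the 100 highest rows 33 were in EGFP-positive and 31 in EGFP-negative cells. The median ribosomal protein gene stood at 822 FPKM in EGFP-positive and 809 FPKM in EGFP-negative cells, while the median of all rows above 0 was 21.7 FPKM in EGFP-positive and 19.9 FPKM in EGFP-negative cells. A few genes carried most of the signal. The 10 most abundant members held 59.8% of the members' summed FPKM in EGFP-positive and 55.2% in EGFP-negative cells.

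Among themselves the members covered a range far wider than any difference between the fractions. Above 0, they ran between 55.6 FPKM for rpl36a and 31072 FPKM for rpl36 in EGFP-positive cells, a 559-fold span. In EGFP-negative cells they ran between 11.3 FPKM for rpl37 and 17615 FPKM for rplp1, a 1565-fold span. Most of the proteins stand in the ribosome in equal number, but their deposited mRNA levels were not alike, and neither transcript length nor assignment of reads between gene copies was tested as a source of this span. The order of the genes was nearly the same in both libraries. Over the 77 members above 0 in both, log2 FPKM in EGFP-positive and in EGFP-negative cells had a Pearson's r of 0.98 and a Spearman's rho of 0.99, across genes that share the same pair of libraries and the same gene models.

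**Figure D1:**
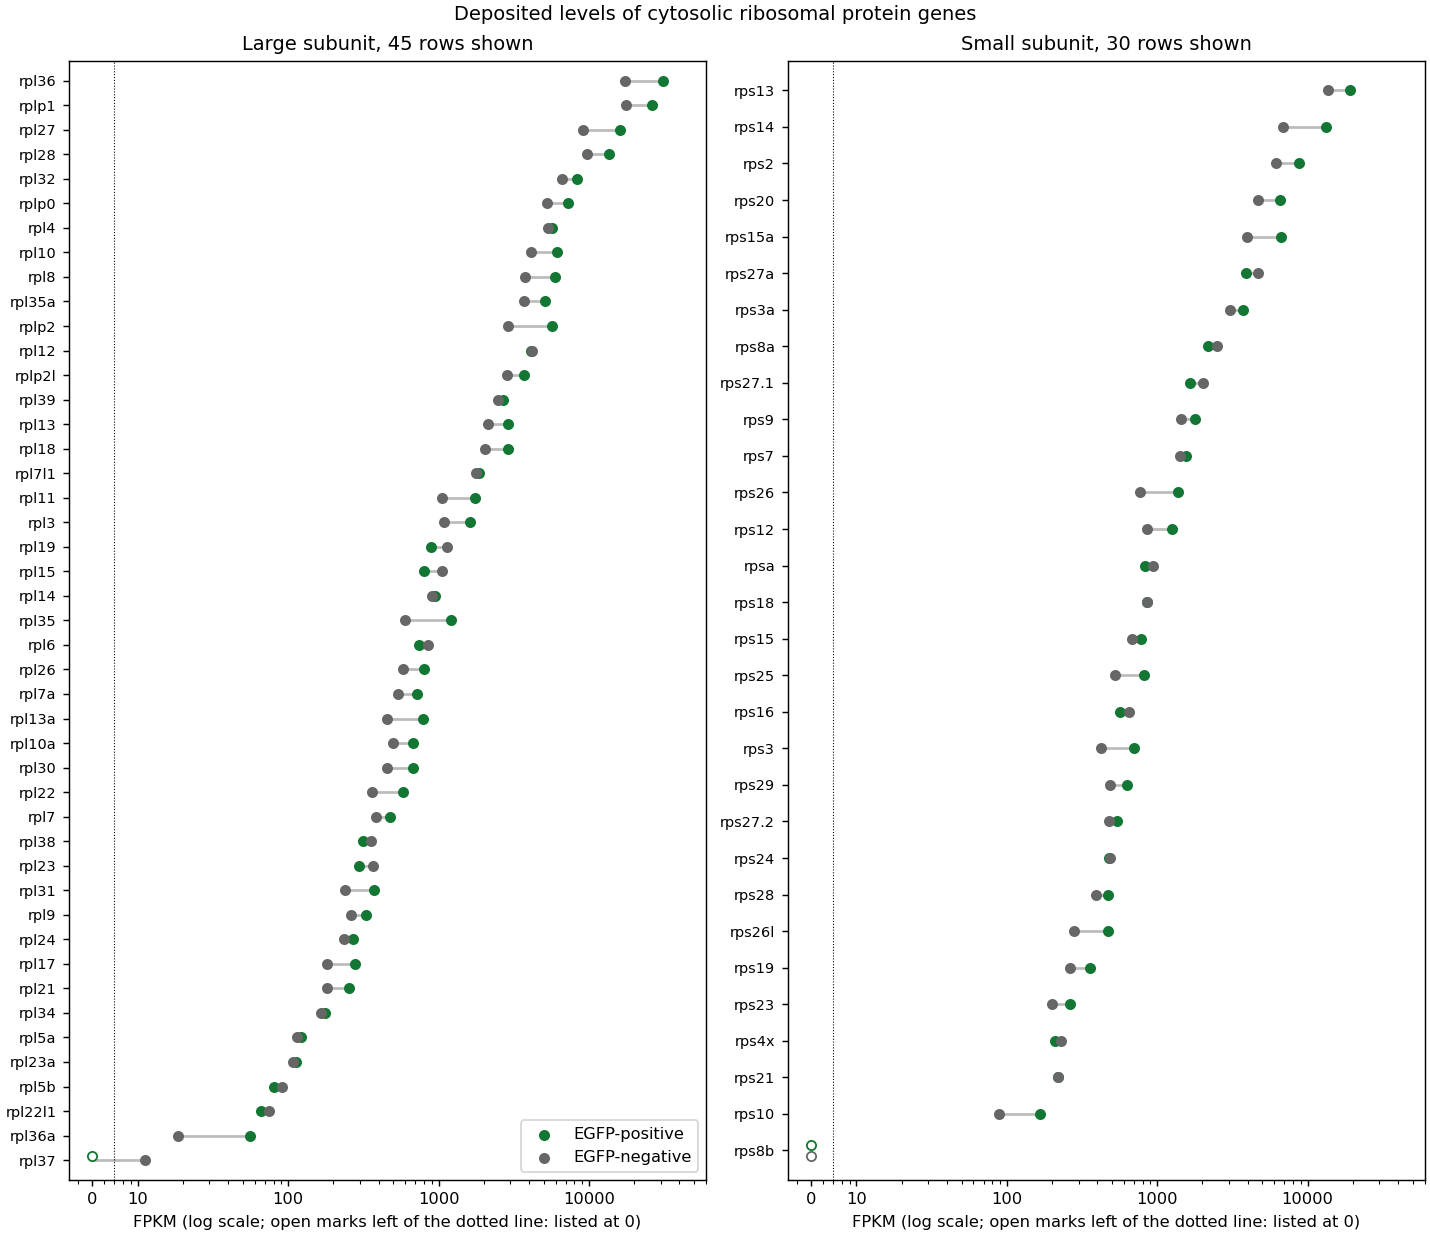
FPKM of 75 of the ribosomal protein genes on a log scale, large subunit on the left and small subunit on the right, with EGFP-positive cells in green and EGFP-negative cells in grey. Open marks left of the dotted line are values listed at 0 (rpl37 in EGFP-positive cells, rps8b in both), and the green mark lies to the right of the grey one for most genes. Over all tested members that side holds for 61 of 78 genes as deposited and for 45 of 78 when both libraries are scaled to the same sum of FPKM.

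The difference between the fractions was described as a log2 ratio, log2(FPKM + 1) in EGFP-positive minus log2(FPKM + 1) in EGFP-negative cells, for the 9685 genes at 1 FPKM or more in either library. Of the 79 members, 78 met that minimum. The other, rps8b, was listed at 0 in both libraries. The ratio was above 0 for 61 of the 78 members, or 78.2%, against 48.5% of all genes tested. The median was 0.39 over the members and -0.04 over all genes tested. A difference of at least 2-fold was rare. Only 2 members were at least 2-fold higher in EGFP-positive cells, where 22.9% of all genes tested were, and 1 was at least 2-fold lower, where 26.5% of all genes tested were. Among genes above 0 in both libraries, 17.8% were at least 2-fold higher and 16.5% lower, against 2 and 0 of the 77 members above 0 in both. At 1.5-fold, 19 members were higher and 1 was lower, where 31.5% of all genes were higher and 34.5% lower.

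How many members lay above 0 depended on how the libraries were scaled. Scaling both libraries to the same sum of FPKM lowered the ratios of abundant genes by about 0.29, since the sum was larger in the EGFP-positive library. Ratios that rest on low values fell by less, as for rpl37, from -3.62 to -3.75. The members' median then was 0.10 and the median of all genes tested -0.32, and 45 of the 78 members lay above 0. The 16 members that changed side under that scaling had deposited log2 ratios between 0.00 and 0.28. Scaling without rn7sk left 52 members above 0 and centring on abundant genes outside the group left 53. Above the median of all genes, where 50.0% of genes lie by construction, stood 64 of the 78 members as deposited. The members' median exceeded that of all genes by 0.43 as deposited and by 0.42 under the same-sum scaling. A rescaling leaves this difference nearly in place by construction, since it moves all genes but those at low values by nearly the same step.

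Most genes of either subunit lay above 0 as deposited, where 48.5% of all genes tested did. Of all genes tested, 22.9% were 2-fold higher or more and 26.5% were 2-fold lower or more. Of 46 large subunit genes, 37 were above 0, 2 reached 2-fold on the higher side and 1 on the lower side, with a median log2 ratio of 0.43. Of 32 small subunit genes, 24 were above 0 and none differed by 2-fold in either direction, with a median of 0.34. The median of the large subunit exceeded that of the small one by 0.10. Among the genes above 0 in both libraries, the log2 ratios had an SD of 0.40 over 45 large and 0.37 over 32 small subunit genes. Proteins that also occur in bacterial ribosomes had a median of 0.44 over 33 genes, against 0.31 over the other 45. Those offsets between groups of members were not tested.

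**Figure D2:**
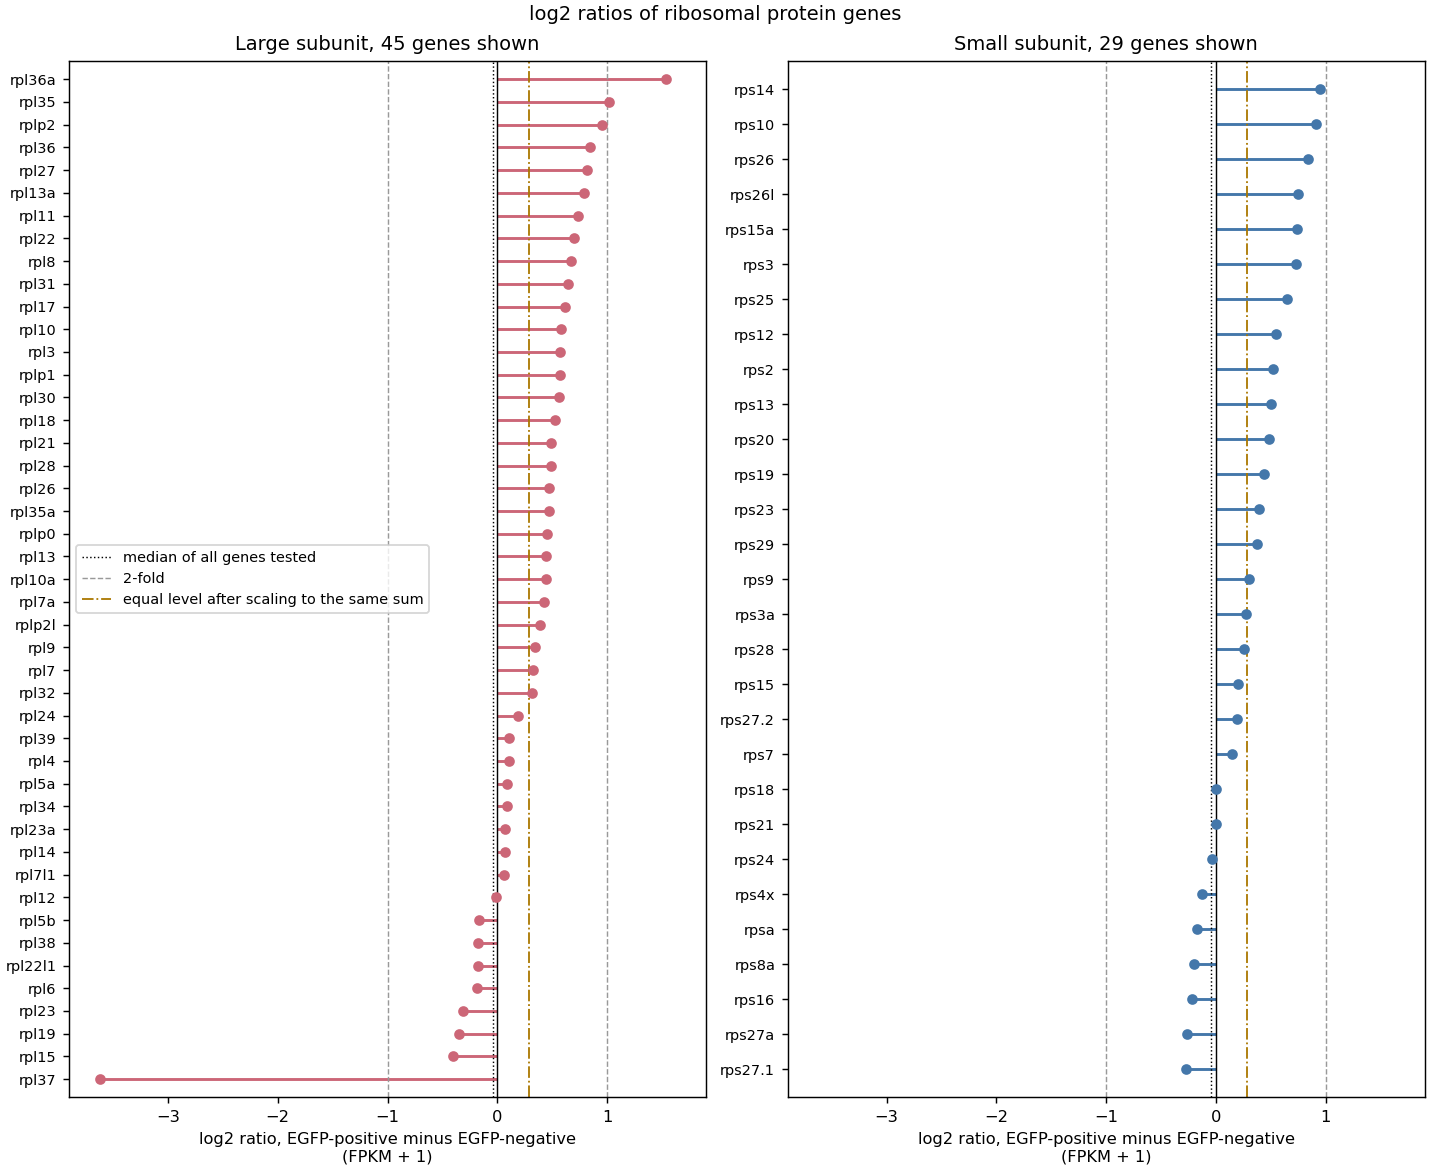
The log2 ratios of tested ribosomal protein genes, EGFP-positive minus EGFP-negative, ranked within the large subunit (45 genes shown) and the small subunit (29 genes shown). Dashed lines mark 2-fold, the dotted line the median of all genes tested at -0.04, and the dash-dotted line the point of equal level when both libraries are scaled to the same sum, so genes between 0 and that line change side under that scaling. Most genes lie between 0 and 1, and rpl37 at -3.62 rests on a value listed at 0.

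Beside other genes of like abundance, the members were closely spaced and lay higher, though neither contrast was tested. The other genes are all rows outside the symbol rule, so they include subunits listed under other names, such as rps6 and rpl29. Over the 77 members above 0 in both libraries, their log2 ratios had an SD of 0.38. For members with a geometric mean of the libraries between 100 and 1000 FPKM it was 0.36 over 38 genes, where the other genes of that range had an SD of 0.86 over 1050. For those at 1000 FPKM or more the SD was 0.35 over 35 members and 0.60 over 79 other genes. The medians in the upper range were 0.49 for members and 0.11 for other genes. Of those 79 other genes, 59.5% lay above 0, 7.59% were at least 2-fold higher, 19.0% were 1.5-fold higher or more and 7.59% were 1.5-fold lower or more. Of the 35 members in this range 30 lay above 0, none reached 2-fold and 9 were at least 1.5-fold higher.

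The offset was seen at every level of abundance from 100 FPKM upwards. The members' median log2 ratio was 0.27 between 100 and 300 FPKM (12 genes), 0.29 between 300 and 1000 FPKM (26 genes), 0.37 between 1000 and 3000 FPKM (14 genes) and 0.50 from 3000 FPKM upwards (21 genes). Other genes in the same ranges had medians of 0.01, 0.01, 0.13 and 0.07, over 804, 246, 64 and 15 genes. The members' medians were in each range the higher ones. Across the 77 members, the ratio and log2 abundance had a Pearson's r of 0.16 and a Spearman's rho of 0.22, values that share both libraries on either axis. Without rpl36a, the least abundant of them in EGFP-positive cells, r was 0.29 and rho 0.27 over 76 genes.

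**Figure D3:**
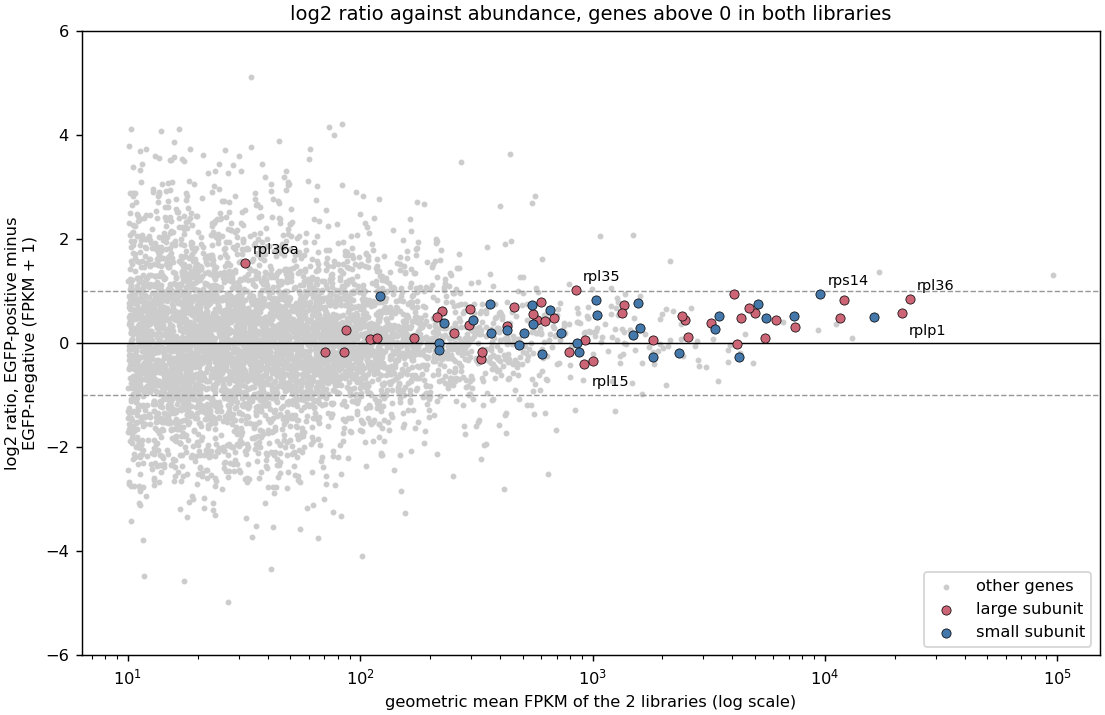
The log2 ratio, EGFP-positive minus EGFP-negative, against the geometric mean FPKM on a log scale, for 5475 genes above 0 in both libraries and at a geometric mean of 10 FPKM or more. Large subunit genes are red, small subunit genes blue and all other genes grey, and 1 other gene lies beyond the axis. The members form a narrow band centred above 0 as deposited (a median of 0.49 at 1000 FPKM or more, against 0.11 for other genes), and rpl36a stands above it.

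The stalk of the large subunit recruits the translation factors that hydrolyse GTP, and its genes were among the most abundant. Rplp1, a tip protein of the stalk, stood at 26167 FPKM in EGFP-positive and 17615 FPKM in EGFP-negative cells. Rplp0, which anchors the stalk, stood at 7224 FPKM in EGFP-positive and 5278 FPKM in EGFP-negative cells. Rplp2, the partner of rplp1, stood at 5643 FPKM in EGFP-positive and 2920 FPKM in EGFP-negative cells, a log2 ratio of 0.95 that lay just under 2-fold. Its copy rplp2l, listed in RefSeq as rplp2b, was at 3712 FPKM in EGFP-positive and 2843 FPKM in EGFP-negative cells. Rpl12, at the base of the stalk, was the exception, at 4148 FPKM in EGFP-positive and 4196 FPKM in EGFP-negative cells. Over the 5 genes the median log2 ratio was 0.45, near that of the whole subunit.

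Proteins of the 5S particle, which in mammals bind Mdm2 when ribosome assembly is disturbed, did not share a ratio. Rpl11 stood at 1756 FPKM in EGFP-positive and 1055 FPKM in EGFP-negative cells, a log2 ratio of 0.73. Its partner rpl5 is encoded by a pair of genes, of which rpl5a was at 121 FPKM in EGFP-positive and 114 FPKM in EGFP-negative cells and rpl5b at 80.5 FPKM in EGFP-positive and 90.4 FPKM in EGFP-negative cells. Their summed level was 202 FPKM in EGFP-positive and 204 FPKM in EGFP-negative cells, and rpl11 exceeded it 8.70-fold in EGFP-positive and 5.16-fold in EGFP-negative cells. The partners of the particle thus differed in ratio as well as in level.

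The 3 genes named next encode proteins near the peptidyl transferase centre, where the peptide bond forms, and were chosen after their values were seen. Rpl10, a late-joining protein that contacts tRNA, was at 6137 FPKM in EGFP-positive and 4107 FPKM in EGFP-negative cells. Rpl8, a core protein of this region, was at 5949 FPKM in EGFP-positive and 3745 FPKM in EGFP-negative cells, and rpl3, which lines it, at 1628 FPKM in EGFP-positive and 1095 FPKM in EGFP-negative cells. Their log2 ratios lay between 0.57 and 0.67 as deposited. The same-sum scaling lowers such ratios by about 0.29, so they could not fall below 0 under it.

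Genes for the exit tunnel and its rim had log2 ratios between -0.35 and 1.02, with 7 of 8 above 0 as deposited and a median of 0.29. Rpl35, which lies at the rim where the signal recognition particle docks, stood at 1206 FPKM in EGFP-positive and 595 FPKM in EGFP-negative cells. Its log2 ratio of 1.02 was 1 of the 2 that reached 2-fold, and it was 0.9995 with libraries scaled to the same upper quartile and 0.73 with the same sum, both under the 2-fold line. Rpl17 (279 FPKM in EGFP-positive and 181 FPKM in EGFP-negative cells), rpl31 (373 FPKM in EGFP-positive and 238 FPKM in EGFP-negative cells) and rpl26 (807 FPKM in EGFP-positive and 581 FPKM in EGFP-negative cells) were higher by 0.47 to 0.65 on the log2 scale.

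The other rim and tunnel genes lay close together or lower. Rpl23a, a docking site for the signal recognition particle, was at 112 FPKM in EGFP-positive and 107 FPKM in EGFP-negative cells. Rpl4, whose loop narrows the tunnel, was at 5708 FPKM in EGFP-positive and 5310.3 FPKM in EGFP-negative cells, and rpl39 at 2686 FPKM in EGFP-positive and 2493 FPKM in EGFP-negative cells. Rpl19, which also bridges to the small subunit, was at 888 FPKM in EGFP-positive and 1134 FPKM in EGFP-negative cells and thus on the lower side, at a log2 ratio of -0.35. Ratios of rpl23a, rpl4 and rpl39 turned below 0 under the same-sum scaling.

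Among the larger ratios of the large subunit were genes at opposite ends of the abundance scale. Rpl36a, a protein of the exit site for tRNA, was the highest at 55.6 FPKM in EGFP-positive and 18.5 FPKM in EGFP-negative cells, a 3.01-fold ratio of FPKM. The scalings lower a ratio by about 0.29 at most, so they could not bring its log2 ratio of 1.54 under 2-fold. Rpl36a is the least abundant member above 0 in EGFP-positive cells. Of genes outside the group with a geometric mean under 100 FPKM, those listed at 0 in a library included, 24.7% were at least 2-fold higher. The most abundant member there, rpl36, a different protein in spite of its name, was at 31072 FPKM in EGFP-positive and 17357 FPKM in EGFP-negative cells, a 1.79-fold ratio. Rpl27 stood at 16123 FPKM in EGFP-positive and 9141 FPKM in EGFP-negative cells, rpl13a, known in human cells for silencing inflammatory mRNAs, at 789 FPKM in EGFP-positive and 456 FPKM in EGFP-negative cells, and rpl28, another of the 5 most abundant members, at 13695 FPKM in EGFP-positive and 9784 FPKM in EGFP-negative cells. All of these were on the same side as the median and further from 0.

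Against the common direction stood a small set of large subunit genes. Rpl37 was listed at 0 in EGFP-positive cells and stood at 11.3 FPKM in EGFP-negative cells, so no fold is given. It encodes a protein of every ribosome, and a value listed at 0 can be a lost estimate. Rpl15 was at 800.5 FPKM in EGFP-positive and 1061 FPKM in EGFP-negative cells, and rpl23, a further Mdm2-binding protein in human cells, at 296 FPKM in EGFP-positive and 368 FPKM in EGFP-negative cells. Rpl6 was at 746 FPKM in EGFP-positive and 846 FPKM in EGFP-negative cells. Rpl38, needed in mouse for the translation of a subset of Hox mRNAs, was at 314 FPKM in EGFP-positive and 354 FPKM in EGFP-negative cells, a log2 ratio of -0.17. Apart from rpl37, these genes had log2 ratios between -0.41 and -0.17, so they were lower by less than 1.5-fold.

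Rpl24, which forms a bridge between the subunits, was at 271 FPKM in EGFP-positive and 237 FPKM in EGFP-negative cells. Rpl18 was at 2905 FPKM in EGFP-positive and 2023 FPKM in EGFP-negative cells and rpl35a at 5115 FPKM in EGFP-positive and 3684 FPKM in EGFP-negative cells. A further 9 large subunit genes, rpl7a, rpl9, rpl10a, rpl13, rpl14, rpl21, rpl30, rpl32 and rpl34, were all above 0 as deposited, with log2 ratios between 0.07 and 0.56. Of these, rpl14 and rpl34 changed side under the same-sum scaling.

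In the small subunit, the list for the entry and exit of the mRNA gave the highest group median, 0.73 over 7 genes. Of the 7, 6 were above 0 and 4 at least 1.5-fold higher, where 31.5% of all genes tested were. The list counts rps26 and its copy rps26l apart, and both are among those 4. Rps2, at the entry of the mRNA channel, stood at 8799 FPKM in EGFP-positive and 6153 FPKM in EGFP-negative cells. Rps3, also at the entry, stood at 705 FPKM in EGFP-positive and 424 FPKM in EGFP-negative cells. At the exit, rps14, whose loss in humans underlies the anaemia of the 5q- syndrome, was at 13273 FPKM in EGFP-positive and 6865 FPKM in EGFP-negative cells. Its log2 ratio of 0.95 was the highest of the subunit and lay just under 2-fold.

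Rps26 contacts the mRNA upstream of the start codon, and it is present as a pair of genes that had nearly the same ratio. Rps26 was at 1379 FPKM in EGFP-positive and 772 FPKM in EGFP-negative cells, and rps26l at 469 FPKM in EGFP-positive and 278 FPKM in EGFP-negative cells. Rps26 made up 74.6% of the pair's summed FPKM in EGFP-positive and 73.5% in EGFP-negative cells. Rps28 and rpsa had lower ratios than rps14 and the rps26 pair. Rps28 was at 468 FPKM in EGFP-positive and 392 FPKM in EGFP-negative cells, and rpsa, which is mutated in human congenital absence of the spleen, was at 824 FPKM in EGFP-positive and 932 FPKM in EGFP-negative cells.

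Of the 13 genes listed for the head of the small subunit, 12 were above 0 as deposited, with a median of 0.48. The list leaves out gnb2l1, also on the head, at a log2 ratio of -0.06, and rps27a, at -0.26. Of all members 78.2% were above 0, and of all genes tested 48.5%. Rps10, which is marked with ubiquitin in human cells when ribosomes collide, stood at 166 FPKM in EGFP-positive and 88.2 FPKM in EGFP-negative cells, a log2 ratio of 0.91. Rps20, another target of that mark, was at 6569 FPKM in EGFP-positive and 4705 FPKM in EGFP-negative cells. Both of these head genes were higher by a log2 ratio of 0.48 or more.

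Rps25, which several viral RNAs need to enter the ribosome, was at 821 FPKM in EGFP-positive and 525 FPKM in EGFP-negative cells, and rps12 at 1259.5 FPKM in EGFP-positive and 861 FPKM in EGFP-negative cells. Rps15 stood at 781 FPKM in EGFP-positive and 680.3 FPKM in EGFP-negative cells. Rps18 had all but equal values, at 856 FPKM in EGFP-positive and 855 FPKM in EGFP-negative cells. Rps16, whose tail reaches the tRNA in the peptidyl site, was the gene of the head list on the other side. It was at 562 FPKM in EGFP-positive and 653 FPKM in EGFP-negative cells. The ratios of rps15, rps18 and rps28 turned below 0 under the same-sum scaling.

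The genes of the subunit's body named next lay above 0 or at near-equal values as deposited, and no list of the body was summarised. Rps15a was at 6650.2 FPKM in EGFP-positive and 3975 FPKM in EGFP-negative cells, and rps13, the most abundant gene of the subunit, at 19281 FPKM in EGFP-positive and 13635 FPKM in EGFP-negative cells. Rps23, a protein of the decoding centre, was at 262 FPKM in EGFP-positive and 199 FPKM in EGFP-negative cells. Rps21 had near-equal values of 217.5 FPKM in EGFP-positive and 217.9 FPKM in EGFP-negative cells. Rps9 and rps3a had log2 ratios of 0.28 to 0.30.

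The lowest ratios of the small subunit were modest. Rps27a, which is made as a fusion with ubiquitin, was at 3905 FPKM in EGFP-positive and 4687 FPKM in EGFP-negative cells, a log2 ratio of -0.26. Rps4x was at 209 FPKM in EGFP-positive and 228 FPKM in EGFP-negative cells. Rps8a was at 2192 FPKM in EGFP-positive and 2514 FPKM in EGFP-negative cells, and its copy rps8b was listed at 0 in both. The lowest ratio of the subunit was -0.27, for rps27.1, and no small subunit gene was 1.5-fold lower.

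Several subunits are encoded by a pair of paralogues, and the largest difference in a paralogue's share between the fractions was 9.65 percentage points. For these genes the authors' counting may split reads between near-identical copies, so their values are uncertain. Rplp2 made up 60.3% of the summed FPKM of rplp2 and rplp2l in EGFP-positive and 50.7% in EGFP-negative cells. Rps27.1 stood at 1660.1 FPKM in EGFP-positive and 2003 FPKM in EGFP-negative cells and rps27.2 at 544 FPKM in EGFP-positive and 475 FPKM in EGFP-negative cells, so the share of rps27.1 was 75.3% in EGFP-positive and 80.8% in EGFP-negative cells. Rpl5a held 60.2% of its pair in EGFP-positive and 55.8% in EGFP-negative cells.

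Rpl22 and rpl22l1 lay on opposite sides of 0 as deposited. Rpl22, which mouse needs for the development of a class of T cells and whose loss there is met by more Rpl22l1, was at 582 FPKM in EGFP-positive and 359 FPKM in EGFP-negative cells, a log2 ratio of 0.70. Rpl22l1 was at 66.4 FPKM in EGFP-positive and 75.0 FPKM in EGFP-negative cells, a log2 ratio of -0.17. The share of rpl22 in the pair was 89.8% in EGFP-positive and 82.7% in EGFP-negative cells. Rpl7 was at 479 FPKM in EGFP-positive and 382 FPKM in EGFP-negative cells. The related rpl7l1, at 1854 FPKM in EGFP-positive and 1781 FPKM in EGFP-negative cells, was the more abundant in both fractions. It held 79.5% of the pair's summed FPKM in EGFP-positive and 82.3% in EGFP-negative cells. By symbol, rpl7l1 and rpl22l1 count among the 46 large subunit genes, but they are not subunits of the standard ribosome. Their shares therefore do not describe the supply of a subunit.

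Genes of Diamond-Blackfan anaemia were also mostly above 0. Of 23 listed genes 22 were in the table, of which 18 were above 0 as deposited. There were 8 genes, or 36.4%, that were 1.5-fold or more higher, near the 31.5% of all genes tested, and 1 that reached 2-fold, where 22.9% of all genes did. The median log2 ratio was 0.47. Rps19, the gene most often mutated in patients, was at 358 FPKM in EGFP-positive and 263 FPKM in EGFP-negative cells. Rps29 stood at 632 FPKM in EGFP-positive and 488 FPKM in EGFP-negative cells. Closer to equal values were rps7 (1564 FPKM in EGFP-positive and 1415 FPKM in EGFP-negative cells) and rps24 (478 FPKM in EGFP-positive and 489 FPKM in EGFP-negative cells). The median over all members was 0.39.

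Some subunits stood in the table under other names and were thus not among the 79. RefSeq lists zgc:77235 as an older name of rpl27a, and this row was at 349 FPKM in EGFP-positive and 900.4 FPKM in EGFP-negative cells, a log2 ratio of -1.37. Had it been included it would have been the lowest member above 0 in both libraries. The row of rps6 (zgc:92237), the substrate of the S6 kinases, was at 4812 FPKM in EGFP-positive and 4245 FPKM in EGFP-negative cells. The row of rpl29 (zgc:92868) was at 3869 FPKM in EGFP-positive and 3951 FPKM in EGFP-negative cells and that of rps27l (zgc:136826) at 310.3 FPKM in EGFP-positive and 232 FPKM in EGFP-negative cells.

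Gnb2l1, now rack1, a scaffold on the head of the small subunit, was at 500.7 FPKM in EGFP-positive and 522 FPKM in EGFP-negative cells. With these 5 rows added, 63 of 83 genes were above 0 and the number at least 2-fold lower was 2. They were looked for after the values had been seen. Ribosomal proteins other than these were not analysed here.

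Among the genes that build ribosomes, the assembly factors were split evenly about 0. Of 80 assembly factors, 3 were 2-fold higher or more and 5 were 2-fold lower or more, against 22.9% of all genes tested on the higher and 26.5% on the lower side, with 40 above 0 and a median of -0.02. Rrp36 (16.5 FPKM in EGFP-positive and 3.19 FPKM in EGFP-negative cells) and ddx18 (295 FPKM in EGFP-positive and 85.5 FPKM in EGFP-negative cells), both nucleolar factors, were the highest. Mrto4, which holds the place of rplp0 in the nascent subunit, was at 69.85 FPKM in EGFP-positive and 209 FPKM in EGFP-negative cells, and sbds, which helps to free the large subunit for joining, at 34.5 FPKM in EGFP-positive and 98.8 FPKM in EGFP-negative cells. Nip7 (11.5 FPKM in EGFP-positive and 33.0 FPKM in EGFP-negative cells) and imp4 (9.07 FPKM in EGFP-positive and 21.0 FPKM in EGFP-negative cells) were also at least 2-fold lower.

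RNA polymerase I, which transcribes the large ribosomal RNA precursor, had 8 of 9 genes above 0 as deposited, against 48.5% of all genes tested. Its median was 0.31, close to that of the small subunit, and 0.0307 under the same-sum scaling. A minimum of 20 FPKM leaves out taf1b, the only gene below 0, and also genes above 0, such as ubtfl. The list's median was then 0.51, above those of both subunits. Among genes above 0 in both libraries it was 0.30, and with a pseudocount of 5 FPKM 0.23. Of the 9 genes 2, or 22.2%, were at least 2-fold higher, near the 22.9% of all genes tested, and none was 2-fold lower. Polr1d, a subunit that is mutated in the human facial disorder Treacher Collins syndrome, was at 47.1 FPKM in EGFP-positive cells and listed at 0 in EGFP-negative cells. Polr1c, another gene of that syndrome, was at 145 FPKM in EGFP-positive and 132 FPKM in EGFP-negative cells. Polr1e was at 88.5 FPKM in EGFP-positive and 40.9 FPKM in EGFP-negative cells, znrd1 at 121 FPKM in EGFP-positive and 74.1 FPKM in EGFP-negative cells and ubtfl, a relative of the promoter factor of this polymerase, at 7.40 FPKM in EGFP-positive and 5.54 FPKM in EGFP-negative cells, while taf1b, part of a promoter complex of this polymerase, was at 9.61 FPKM in EGFP-positive and 17.2 FPKM in EGFP-negative cells.

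Other TOP transcripts, which share the translational control of the ribosomal proteins, had 16 of 19 genes above 0 as deposited, against 48.5% of all genes tested. Their median of 0.25 turned to -0.04 under the same-sum scaling. Of the 19 genes 5, or 26.3%, were 2-fold higher or more, near the 22.9% of all genes tested, and 2 were 2-fold lower or more, where 26.5% of all genes tested were. Eef1a1l1, the main elongation factor that delivers tRNA, was at 1174 FPKM in EGFP-positive and 535 FPKM in EGFP-negative cells. The helicase gene eif4a2 was at 156 FPKM in EGFP-positive and 47.5 FPKM in EGFP-negative cells and the translocase gene eef2a.1 at 45.8 FPKM in EGFP-positive and 21.6 FPKM in EGFP-negative cells. Eef1a1b, at 6.23 FPKM in EGFP-positive cells, was listed at 0 in EGFP-negative cells. On the other side, eef1da was at 67.1 FPKM in EGFP-positive and 144 FPKM in EGFP-negative cells, and eif3eb was listed at 0 in EGFP-positive and at 4.01 FPKM in EGFP-negative cells.

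In the mTOR list 2 of 14 genes, or 14.3%, were at least 2-fold higher, where 22.9% of all genes tested were, and 1 was 2-fold lower, where 26.5% were. Above 0 as deposited were 10 genes of the list, or 71.4%, against 48.5% of all genes tested. The list's median of 0.13 became -0.15 under the same-sum scaling. Rps6kb1b, an S6 kinase downstream of mTOR, was at 148 FPKM in EGFP-positive and 71.7 FPKM in EGFP-negative cells, and the translational repressor gene eif4ebp1 at 640 FPKM in EGFP-positive and 387 FPKM in EGFP-negative cells. The list also took in rps6ka genes, which are of another kinase family than rps6kb1b. Of these, rps6ka3b was at 8.11 FPKM in EGFP-positive and 4.14 FPKM in EGFP-negative cells. Rps6ka1, 1 of the 2 genes called higher, was at 6.39 FPKM in EGFP-positive cells and listed at 0 in EGFP-negative cells. The mTOR inhibitor gene tsc1b was listed at 0 in EGFP-positive and at 12.5 FPKM in EGFP-negative cells, and eif4ebp3 was at 31.1 FPKM in EGFP-positive and 61.7 FPKM in EGFP-negative cells. Mtor itself was at 16.0 FPKM in EGFP-positive and 15.0 FPKM in EGFP-negative cells.

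**Figure D4:**
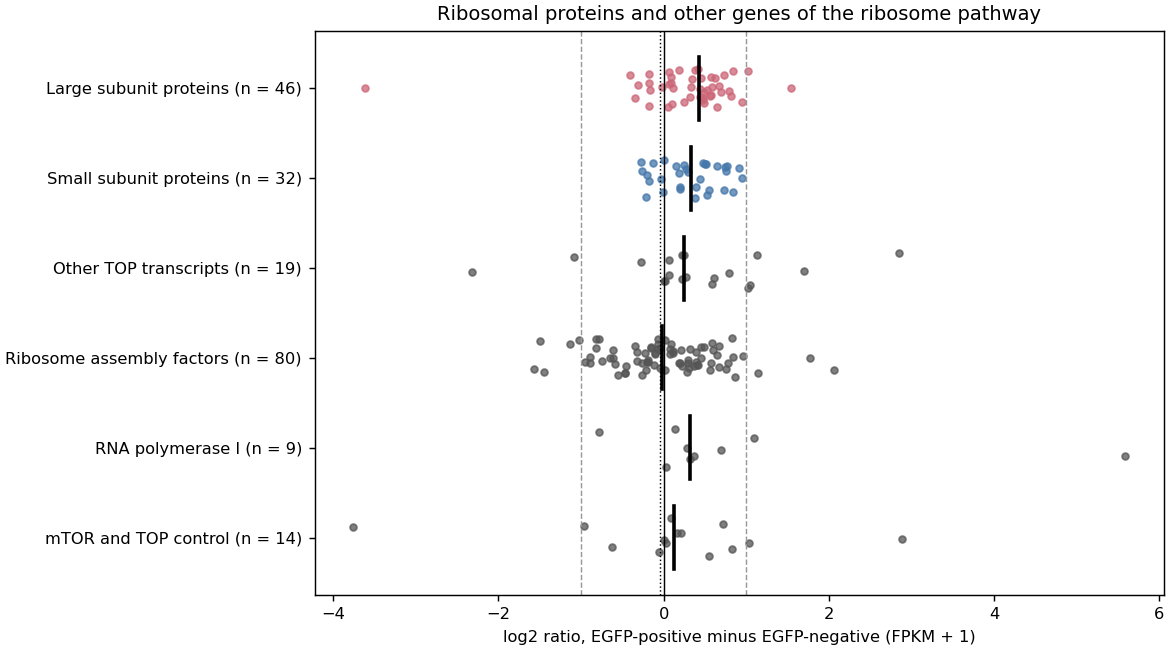
The log2 ratio, EGFP-positive minus EGFP-negative, of each gene in 6 groups, with a black bar at the group's median, dashed lines at 2-fold and a dotted line at the median of all genes tested. As deposited, the medians are 0.43 and 0.34 for the ribosomal proteins and 0.31 for RNA polymerase I. The latter is 0.51 at a minimum of 20 FPKM, which leaves out its only gene below 0 and also genes above 0. With a pseudocount of 5 FPKM it is 0.23. Under the same-sum scaling the medians are 0.15 for the large and 0.0503 for the small subunit and 0.0307 for RNA polymerase I. The median of the other TOP transcripts is then -0.0406, that of the mTOR list -0.15 and that of the assembly factors -0.300. The side of 0 on which a median lies can thus depend on the scaling. The point at the far right is polr1d, which is listed at 0 in EGFP-negative cells.

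The fractions also differed in cell makeup, as their labels say. Sox10, a factor of the neural crest, was at 147 FPKM in EGFP-positive and 16.3 FPKM in EGFP-negative cells, and foxd3 and tfap2a were also more than 2-fold higher. Of 27 measured markers of other cell types, 12 were at least 2-fold lower in EGFP-positive cells, where 26.5% of all genes tested were. The 12 comprised all muscle, heart and endothelium genes measured and 1 gene each of blood and notochord. At least 2-fold higher were 6 markers, or 22.2%, near the 22.9% of all genes tested. The 6 comprised all kidney genes measured, the hatching gland gene and 1 gene each of epidermis and neural tube. The other 9 differed by less than 2-fold. In neural tube, epidermis and notochord, genes lay on both sides of 0. The summed level of the 27 markers was 3396 FPKM in EGFP-positive and 5579 FPKM in EGFP-negative cells. A few abundant genes carried much of these sums, so they do not measure the share of each cell type. Hbae1 was at 1157 FPKM in EGFP-positive and 2287 FPKM in EGFP-negative cells. He1a, on the other side, was at 1004 FPKM in EGFP-positive and 160 FPKM in EGFP-negative cells. Shha, of the notochord and floor plate, was listed at 0 in EGFP-positive cells and neurog1, of the neural tube and of sensory neurons, in EGFP-negative cells. The part of these cell types in the ribosomal protein values was not tested, nor was that of the unequal number of sorted cells.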

How the data were processed

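RNA was measured in 2 libraries, 1 from EGFP-positive and 1 from EGFP-negative cells. Total RNA was taken up in Trizol with a carrier, depleted of ribosomal RNA and turned into libraries with a low-input kit for Illumina sequencing, per the labels' protocols. The deposited table holds FPKM values computed by the authors, 1 column per library, and the sample descriptions name those columns. TopHat2 (version 2.0.11), Cufflinks (version 2.2.1), cutadapt and the build Zv9 are named per the submitters' processing notes. Options, annotation and any scaling between libraries: not given in the sources used here.

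Total counts cannot be read from FPKM. A search for read steps used 712 low genes (over 0 but below 6 FPKM in each library). The fullest bin of their log2 ratio, 0.02 wide, held 1.54% of them, so no steps were recovered and depth and counting error are unknown.

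The ratio was log2(FPKM + 1) in EGFP-positive minus EGFP-negative cells, which understates low genes, for genes at 1 FPKM or more in either library, with calls at 2-fold. Plain folds are quotients of FPKM. The calculation was run on simulated data with large shifts and little noise, which checks the arithmetic and not the calls in these data. None of the 58 joined rows named a member. Of the 79 symbols, 78 were current in RefSeq (GRCz12tu) and 1 was an older name. That assembly differs from Zv9, so no coordinates are given, and no sequences were used here. The members and lists were chosen with earlier results of these data known. Genes named were those at least 2-fold apart, those listed at 0, the 6 highest and 6 lowest of each subunit, the 5 most abundant, paralogues, the stalk, the 5S particle, the Diamond-Blackfan genes and, of each other list of the ribosome pathway, up to 4 genes with and 2 against its median. A few genes are not reported here by name, and those among the 79 members still count in the summaries. Further genes were named for completeness, after their values were seen. The planned description of sequence features was not made. Python version 3.11.15 and pandas version 2.3.3 were used.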

Additional observations from a re-analysis of the deposited data

How the results depend on the processing

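No paired analysis was possible because each group had 1 library. No library could be left out, and the missing replicate and unknown depth limit each value most. Pseudocounts of 0.1 and 5 FPKM, no minimum, and the like-genes rpl7l1 and rpl22l1 left out moved no count of calls or list median beyond its tolerance. The tolerance was 1.5 times for a count and the interval over genes for a median. Adding the joined rows could change nothing, since none of them named a member. The members at least 2-fold higher numbered 2 as deposited and 1 under each of the same-sum, same-sum without rn7sk, upper-quartile and abundant-gene scalings, since rpl35 fell under 2-fold, and also 1 without rpl37 and rpl36a. At 1.5-fold they numbered 19. The members at least 2-fold lower numbered 1 as deposited, 0 with a minimum of 20 FPKM, among genes above 0 in both, and without rpl37 and rpl36a, and 2 with the subunits outside the symbol rule added. The last alternative and the one without rpl37 and rpl36a were chosen after seeing the data. Under the same-sum scaling the medians were 0.10 for all members, 0.0503 for the small subunit, -0.0406 for the other TOP transcripts, -0.300 for the assembly factors and 0.0307 for RNA polymerase I. Without rn7sk in the sum the assembly factors had a median of -0.19. A rescaling moves all genes but those at low values by nearly the same step, which sets these values. Of the values for single members and further summaries, 845 kept within 0.1 on the log2 scale (1.5 times for a count). The other 227 did not, mostly under these rescalings, and no called member turned to the other side. Many of the 845 could not differ. Settings that change only the minimum, the genes included or the call leave a single member's ratio as it was. The number above the median of all genes, where 50.0% of all genes lie by construction, was 64 of 78 members as deposited, 60 of the 77 members above 0 in both libraries and 67 of 83 with the subunits outside the symbol rule added. With a minimum of 20 FPKM the median of RNA polymerase I was 0.51, above those of both subunits (0.44 for the large and 0.34 for the small one). That minimum leaves out taf1b, the only gene of the list below 0, and also genes above 0, such as ubtfl. The list's median was 0.30 among genes above 0 in both libraries and 0.23 with a pseudocount of 5 FPKM.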
